A study of Mus musculus with 7 samples.

Results

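Olfactory neuron and bulb genes are 6 genes of the smell pathway, picked by name from the 55536 genes counted in newborn mouse brain. Omp, S100a5 and Stoml3 stood for the sensory epithelium of the nose, and Cdhr1, Doc2g and Tbx21 for the olfactory bulb, the part of the forebrain that the sensory neurons reach. The genes were chosen after their levels in these libraries had been seen, so their levels and differences are given as a description, with no test. RNA came from whole brains of untreated C57BL/6 mice at postnatal day 0. There were 4 wild-type brains (2 males, 2 females) and 3 brains heterozygous for a Setd2 allele that changes the SRI domain, written Setd2SRI/wt (1 male, 2 females). The animals were littermates, but the labels do not say which shared a litter, so every p-value measures the spread between these libraries. Setd2 encodes the enzyme that trimethylates lysine 36 of histone H3.

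Sensory neurons of the olfactory epithelium send their axons through the skull into the bulb, where they contact mitral and tufted cells, the bulb's output neurons. Granule and periglomerular interneurons shape that output. The epithelium lies in the nose and is not brain tissue, whereas the bulb belongs to the brain and can remain with it or come off when the brain is removed. In bulk RNA, fewer cells of a type and less RNA per cell cannot be told apart. How much bulb or nasal tissue each sample held is not given in the sources used here.

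Levels are CPM, counts scaled to a common library size by TMM, the trimmed mean of M values. Total counts ran from 4192021 in wild-type male 2 to 16064644 in wild-type female 1, so 1 count was worth 0.0625 to 0.238 CPM. Intervals are exact two-sided Poisson 95% intervals and cover counting error only. Where no read of a member was counted, the text also gives the level of 3 counts, which is below the upper end of that interval. The samples carried brain RNA: 6 general neuron genes summed to between 5600 and 7102 CPM in each library. Wild-type male 1 stood apart in hindbrain Hox transcripts, with a summed 17.1 CPM against 0 to 0.393 CPM in the other libraries. Wild-type female 2 stood apart in pituitary genes, with 32.2 CPM against 4.03 to 15.6 CPM.

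Among the sensory epithelium genes, Omp encodes olfactory marker protein, a cytoplasmic protein of mature olfactory sensory neurons. In mm10 it is ENSMUSG00000074006 on the minus strand of chromosome 7, from 98143359 to 98145502, a single exon inside Capn5, with which it shares no exon base and which had 37.4 to 48.3 CPM. Omp stood at 6.21 and 4.28 CPM in wild-type males 1 and 2 and at 0.375 and 0.524 CPM in females 1 and 2 of that genotype. The Setd2SRI/wt male had 0.366 CPM, and females 1 and 2 carrying the allele had 0.460 and 0.869 CPM. The wild-type males were the highest, and their intervals (5.05 to 7.56 and 2.54 to 6.77 CPM) did not reach those of the other 5 libraries, which ended at 1.56 CPM or lower. The counts behind these levels were 99 and 18 in the wild-type males and 2 to 11 in each other library.

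S100a5 encodes a calcium-binding protein of the S100 family whose level in olfactory sensory neurons follows their activity. It is ENSMUSG00000001023 on the plus strand of chromosome 3, from 90608523 to 90611780, with 3 exons. S100a5 stood at 5.40 and 4.05 CPM in wild-type males 1 and 2, at 0.0655 CPM in wild-type female 2 and at 0.395 CPM in Setd2SRI/wt female 2. The remaining libraries, wild-type female 1, Setd2SRI/wt female 1 and the only male with the allele, held no S100a5 read, and in them a count of 0 allows up to 0.188, 0.46 and 0.549 CPM by the limit of 3 counts per library (0.231, 0.566 and 0.676 CPM by the two-sided interval). The wild-type males held 103 of the 109 S100a5 counts.

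Stoml3 encodes a stomatin-like membrane protein of olfactory cilia that also acts in touch-sensing neurons. It is ENSMUSG00000027744 on the plus strand of chromosome 3, from 53488653 to 53508502, with 7 exons. Stoml3 stood at 2.76 and 1.67 CPM in wild-type males 1 and 2 and at 0.813 and 2.75 CPM in females 1 and 2 of that genotype. The Setd2SRI/wt male had 0.733 CPM, and females 1 and 2 carrying the allele had 0.153 and 0.316 CPM. Here wild-type female 2 was as high as wild-type male 1, and all 3 Setd2SRI/wt libraries lay below all 4 wild-type libraries. The gap between the groups was narrow beside the counting error: the Setd2SRI/wt male reached 1.88 CPM at its upper limit and wild-type female 1 began at 0.433 CPM.

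Among the bulb genes, Cdhr1 encodes a cadherin-related protein of mitral and tufted cells and of photoreceptor outer segments. It is ENSMUSG00000021803 on the minus strand of chromosome 14, from 37077857 to 37098347, with 17 merged exons. Cdhr1 stood at 21.6 and 44.3 CPM in wild-type males 1 and 2 and at 6.38 and 5.96 CPM in females 1 and 2 of that genotype. The Setd2SRI/wt male had 3.48 CPM, and females 1 and 2 carrying the allele had 12.1 and 6.16 CPM. Wild-type male 2 was highest and the Setd2SRI/wt male lowest, and the intervals of the wild-type males (19.4 to 24.0 and 38.1 to 51.1 CPM) lay above all others. The summed level of 8 photoreceptor genes was 3.57 to 5.69 CPM and lowest in wild-type male 2, the library with the most Cdhr1.

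Doc2g encodes a member of the double C2 domain family and is a mitral and tufted cell marker. It is ENSMUSG00000024871 on the plus strand of chromosome 19, from 4003313 to 4007005, with 6 exons. It shares 1926 exon bases with the same-strand gene model Gm49405, so its count is uncertain. Doc2g stood at 7.41 and 16.7 CPM in wild-type males 1 and 2 and at 1.81 and 2.42 CPM in females 1 and 2 of that genotype. The Setd2SRI/wt male had 1.65 CPM, and females 1 and 2 carrying the allele had 3.99 and 2.29 CPM. The highest library, the lowest library and the place of Setd2SRI/wt female 1 were those of Cdhr1.

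Tbx21, also called T-bet, encodes a T-box transcription factor of mitral and tufted cells that is also found in T and NK lymphocytes. It is ENSMUSG00000001444 on the minus strand of chromosome 11, from 97098071 to 97115331, with 6 merged exons. Tbx21 had only 30 counts in all. They gave 0.879 and 1.43 CPM in wild-type males 1 and 2 and 0.125 and 0.196 CPM in females 1 and 2 of that genotype. Setd2SRI/wt female 1 had 0.613 CPM, Setd2SRI/wt female 2 had 0.0790, and the Setd2SRI/wt male had no count, which allows up to 0.549 CPM by 3 counts and 0.676 CPM by the two-sided interval. The order had the same top 3 libraries as Cdhr1 and Doc2g, but the intervals overlapped. Of 9 T and NK cell genes, Cd3d, Nkg7 and Ifng had no count, and the sum of all 9 was highest in wild-type female 1 at 1.38 CPM, where Tbx21 was low.

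**Figure D1:**
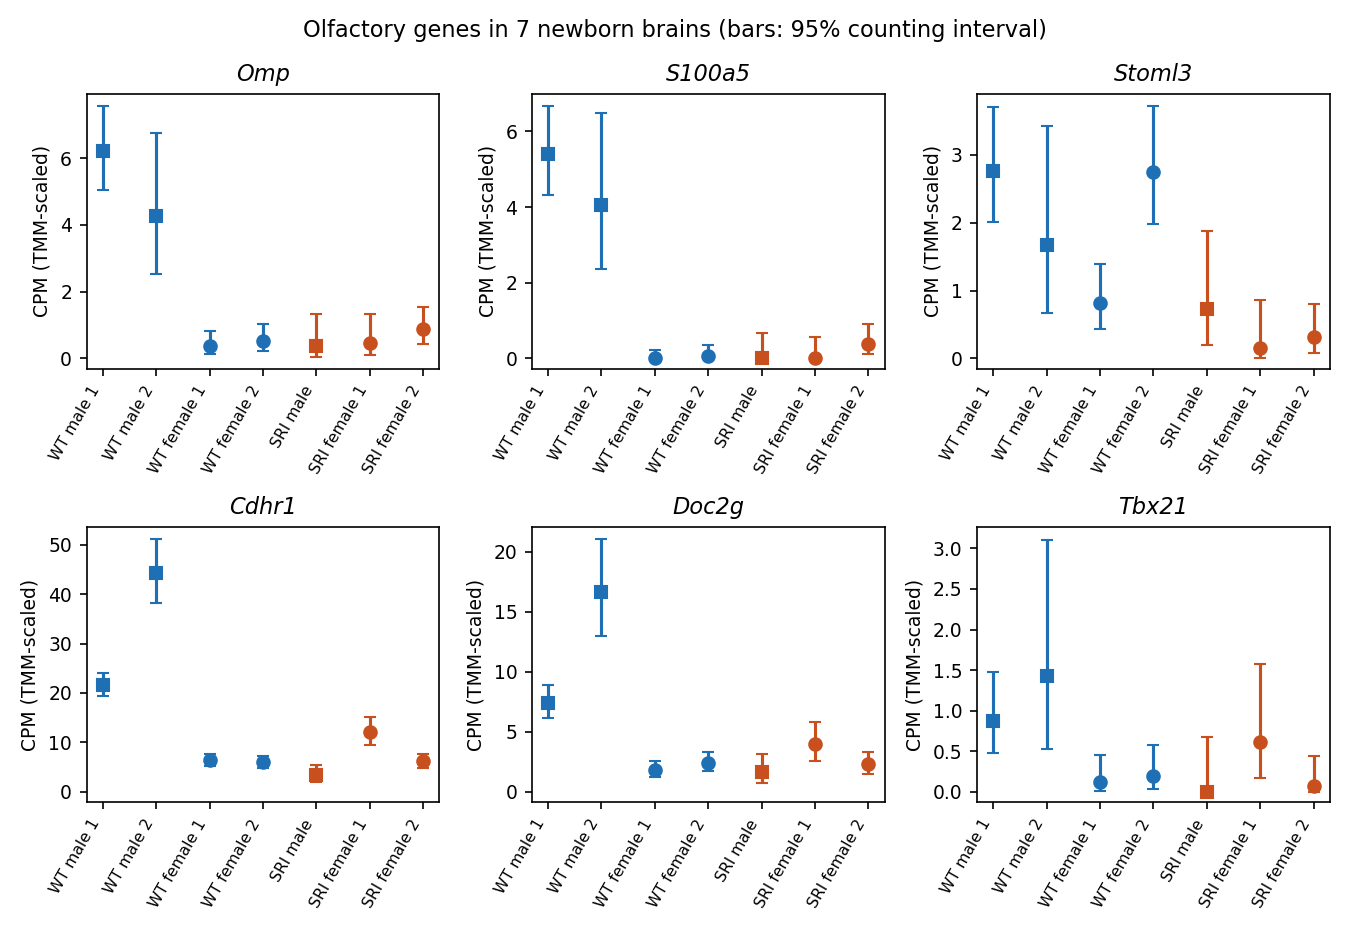
CPM (vertical axis) of each gene in the 7 libraries (horizontal axis), with exact Poisson 95% counting intervals as bars; squares are males, circles females, blue wild type and orange Setd2SRI/wt. The wild-type males stand above the other libraries for every gene except Stoml3, for which wild-type female 2 is as high at 2.75 CPM.

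In 5 of the 6 genes, all but Stoml3, the wild-type males were the 2 highest libraries. The same order was found in 4.38% of the 17260 genes tested, and since it entered the choice of these genes nothing is read from the count. By the ratio of means, the wild-type males were 10.1-fold above the other 5 libraries for Omp, 51.3-fold for S100a5, 4.83-fold for Cdhr1, 4.95-fold for Doc2g and 5.69-fold for Tbx21. The S100a5 ratio rests on 6 counts in the other 5 libraries. For Stoml3 the ratio was 2.32. An order with at least a 2-fold ratio was found in 0.394% of genes. The wild-type males held 26.5% of all counts but 94.5% of S100a5, 79.6% of Omp and 59.0% of Cdhr1 counts.

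The balance of the classes differed between the wild-type males. Wild-type male 1 was the higher for the sensory genes, 1.45-fold for Omp, 1.33-fold for S100a5 and 1.66-fold for Stoml3. Wild-type male 2 was the higher for the bulb genes, 2.05-fold for Cdhr1, 2.25-fold for Doc2g and 1.63-fold for Tbx21. Their counting intervals were separate for Cdhr1 and Doc2g but overlapped for the 3 sensory genes and Tbx21. Of the counts of Omp, S100a5 and the 3 bulb genes together, Omp and S100a5 made up 28.0% in wild-type male 1 (exact binomial 95% interval 24.6% to 31.6%) and 11.8% in wild-type male 2 (8.35% to 16.0%). In the other libraries this share was 2.68% to 12.9%, with intervals that overlapped that of wild-type male 2 except in Setd2SRI/wt female 1. Counts of Doc2g per count of Cdhr1 stayed between 0.284 and 0.474 in all 7 libraries, while counts of Omp per count of Cdhr1 ran from 0.0380 to 0.288. Per kilobase of merged exon, the mean levels over 7 libraries were 3.30 CPM for Cdhr1, 3.27 for S100a5, 1.71 for Doc2g, 0.872 for Omp, 0.611 for Stoml3 and 0.191 for Tbx21. This order does not hold within libraries: per kilobase, S100a5 had 12.5 and 9.36 CPM in the wild-type males and 0 to 0.915 CPM in the others, where Cdhr1 had 0.803 to 2.80 CPM.

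Members varied together within each class more than between classes, except Stoml3. Pearson r of log2 CPM (prior count 2) is given as a description over 7 libraries, with no p. All libraries enter every pair, and the wild-type males lie apart from the other 5, so no relation can be tested. Omp and S100a5 had an r of 0.995 (Spearman rho 0.964). The bulb pairs had an r of 0.983 for Cdhr1 and Doc2g, 0.972 for Cdhr1 and Tbx21 and 0.949 for Doc2g and Tbx21 (rho 0.857, 0.893 and 0.964). Over the 9 pairs of a sensory and a bulb gene, r ran from 0.312 to 0.867 and rho from 0.25 to 0.821.

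Without the wild-type males, which for most pairs were also the 2 libraries farthest from the median, Omp and S100a5 kept an r of 0.971 and the bulb pairs an r of 0.908 to 0.953 over 5 libraries. The 9 pairs between the classes then ran from -0.49 to 0.234, so the positive relation between the classes rests on the wild-type males. In the 5 libraries the sensory pattern was led by Setd2SRI/wt female 2, highest for Omp and S100a5, and the bulb pattern by Setd2SRI/wt female 1, highest for Cdhr1, Doc2g and Tbx21. The S100a5 values there rest on 6 counts. Stoml3 went with neither class: its r was 0.549 with Omp and 0.538 with S100a5, and -0.21 and -0.14 without the wild-type males.

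**Figure D2:**
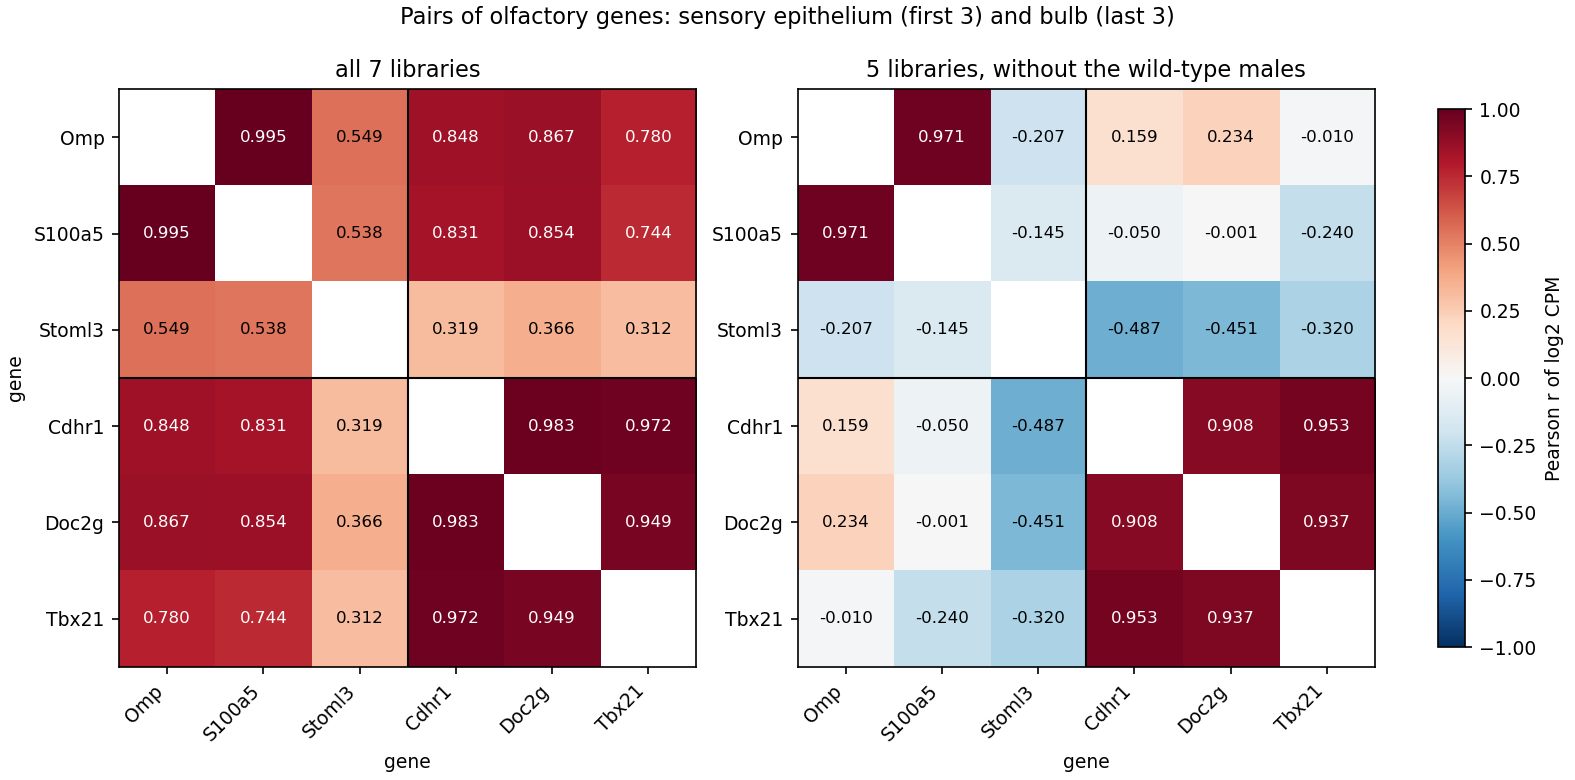
Pearson r of log2 CPM for every pair of the 6 genes (both axes), over 7 libraries on the left and over 5 libraries without the wild-type males on the right; lines divide sensory from bulb genes. The blocks within the bulb stay at 0.908 or above on the right, while the blocks between the classes fall to 0.234 or below.

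**Figure D3:**
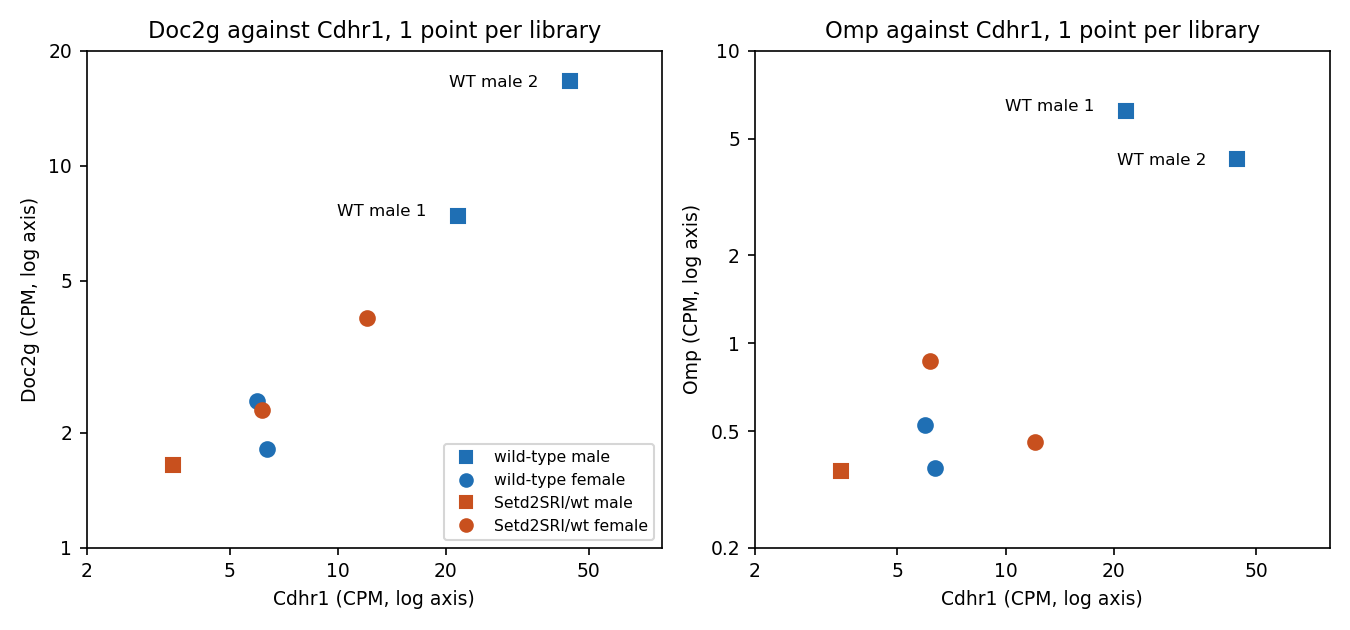
CPM of Doc2g (left) and Omp (right) against CPM of Cdhr1, on log axes, 1 point per library (squares males, circles females, blue wild type, orange Setd2SRI/wt). Doc2g follows Cdhr1 across all libraries, whereas Omp is higher in wild-type male 1 and Cdhr1 in wild-type male 2.

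The promoters of 3 bulb genes and of S100a5 are shown because these genes moved together within their class. They end before the annotated gene start, are written 5′ to 3′ on the gene's strand, and come from RefSeq, build GRCm38.p6. Of the 6 genes 5 had an entry, and Omp had none.
S100a5, chr3:90608272-90608521, plus strand: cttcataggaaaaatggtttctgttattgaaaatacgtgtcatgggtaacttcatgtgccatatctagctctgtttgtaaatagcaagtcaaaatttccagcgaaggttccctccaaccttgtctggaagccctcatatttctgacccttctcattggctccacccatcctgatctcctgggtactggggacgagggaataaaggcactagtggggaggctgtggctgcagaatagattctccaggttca
Cdhr1, chr14:37098348-37098597, minus strand: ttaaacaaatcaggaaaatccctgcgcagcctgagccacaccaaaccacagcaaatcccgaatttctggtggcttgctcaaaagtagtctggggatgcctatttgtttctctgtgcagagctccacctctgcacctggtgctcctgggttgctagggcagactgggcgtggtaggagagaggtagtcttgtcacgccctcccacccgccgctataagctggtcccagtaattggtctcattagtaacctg
Doc2g, chr19:4003135-4003312, plus strand: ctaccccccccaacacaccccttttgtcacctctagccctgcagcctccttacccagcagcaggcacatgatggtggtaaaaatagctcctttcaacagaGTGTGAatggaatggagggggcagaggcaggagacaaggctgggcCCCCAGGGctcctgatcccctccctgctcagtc
Tbx21, chr11:97115332-97115581, minus strand: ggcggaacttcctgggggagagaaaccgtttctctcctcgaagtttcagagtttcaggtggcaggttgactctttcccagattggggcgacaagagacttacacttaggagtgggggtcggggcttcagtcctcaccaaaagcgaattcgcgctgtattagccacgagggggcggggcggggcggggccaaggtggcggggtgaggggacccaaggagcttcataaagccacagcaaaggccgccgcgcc
Capitals mark matches to letters searched on both strands of the 250 bases before the RefSeq start. The letters were CCCNNGGG for Olf/Ebf factors, TAATTA for homeodomain factors and GTGTGA for T-box factors, and were picked with these sequences in view. They occur in 11.8%, 4.84% and 12.3% of 32851 promoters of that length. Doc2g held an Olf/Ebf match 105 bases before the start and T-box matches 150 and 74 bases before it, the last running past the stretch printed. S100a5, Cdhr1 and Tbx21 held no match in this window, and Stoml3, not printed, held a T-box match 115 bases before its start.

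Genes of the same cell types that were not members tell how far the patterns reach. Of the 146 genes in the 16 lists 90 were tested, with 0 from the T and NK cell and hindbrain lists. None of the 90 passed an adjusted p under 0.05 in edgeR's quasi-likelihood test, which called 0.0174% of all genes for genotype and 0.0463% for sex. Of 15 other genes of mature olfactory sensory neurons, 12 were tested, and all 15 summed to between 355.7 and 417.6 CPM, highest in wild-type female 1. Gnal, named as the largest part of this sum, gave 231.2 CPM of it there. Without Gnal the sum was highest in wild-type male 1 at 193.7 CPM. It was 180.1 CPM in wild-type male 2 and 172.0 to 186.4 CPM in the others. Adcy3, the adenylyl cyclase of odor transduction, is also expressed in brain. Its r with the mean of Omp and S100a5 was 0.696, and -0.374 without the wild-type males. With the mean of the bulb members its r was higher, at 0.887. Over the 12 genes of this list with at least 50 counts, the median r with the mean of Omp and S100a5 was 0.125. Of the 15 genes, 8 were highest in a wild-type male and 7 in another library. For Adcy3, and for Gfy and Umodl1, named after their values were seen, the wild-type males were the 2 highest. That order was found in 4.38% of all genes tested. Gfy and Umodl1 did not pass the filter, and both had 0.714 CPM in wild-type male 2, the level of 3 counts there. Cyp2g1 and Cyp2a5, cytochromes of the supporting cells of the epithelium, were also chosen after their values were seen. Each had 2.64 CPM in wild-type male 1 and 0.476 CPM in wild-type male 2. The latter is below the 0.714 CPM that 3 counts are worth there, and neither gene passed the filter. In the other 5 libraries Cyp2g1 had 0.0655 to 0.316 CPM and Cyp2a5 0.183 to 0.790 CPM. Of the 12 supporting and gland cell genes, 3 had no count in any library, 4 were highest in a wild-type male and 5 in another library. Ermn, also made by oligodendrocytes, gave most of the list's sum and was highest in wild-type female 1. The sum itself was highest in wild-type male 1 at 133.9 CPM. Without Ermn it was 7.66 CPM in wild-type male 1, 3.33 CPM in wild-type male 2 and 1.07 to 2.45 CPM in the others. Cyp2g1 and Cyp2a5 are part of these sums.

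The summed odorant receptor genes, which define sensory neurons, differed between libraries by far smaller ratios than Omp. Wild-type males 1 and 2 and Setd2SRI/wt female 2 were the highest libraries for both. Setd2SRI/wt female 2 led the receptor sum and wild-type male 1 led Omp. Of 1407 Olfr genes, 246 had a count, and their summed level was 28.6 and 26.9 CPM in wild-type males 1 and 2 and 25.3 and 25.7 CPM in females 1 and 2 of that genotype. With the Setd2SRI/wt allele it was 25.1 CPM in the male and 24.4 and 31.6 CPM in the females. The counting intervals were 26.0 to 31.3 and 22.2 to 32.3 CPM in wild-type males 1 and 2. Omp averaged 5.25 CPM in the wild-type males and 0.519 CPM in the other 5 libraries. A rise of as many CPM could be hidden in such intervals, but a rise by the same ratio, 10.1-fold, could not. With counts drawn at random to the depth of the shallowest library, 56 and 46 Olfr genes were detected in these males and 40 to 51 in the others. The wild-type males held 27.6% of Olfr counts, close to their 26.5% of all counts. Olfr287, Olfr78 and Olfr1393 gave 25.5% of the 2061 Olfr counts. Olfr287 had 3.37 to 4.64 CPM in all libraries. Only 10 Olfr genes were tested and 0 were called by edgeR, beside 0.0174% of all genes for genotype and 0.0463% for sex, so that nothing is read from this count.

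**Figure D4:**
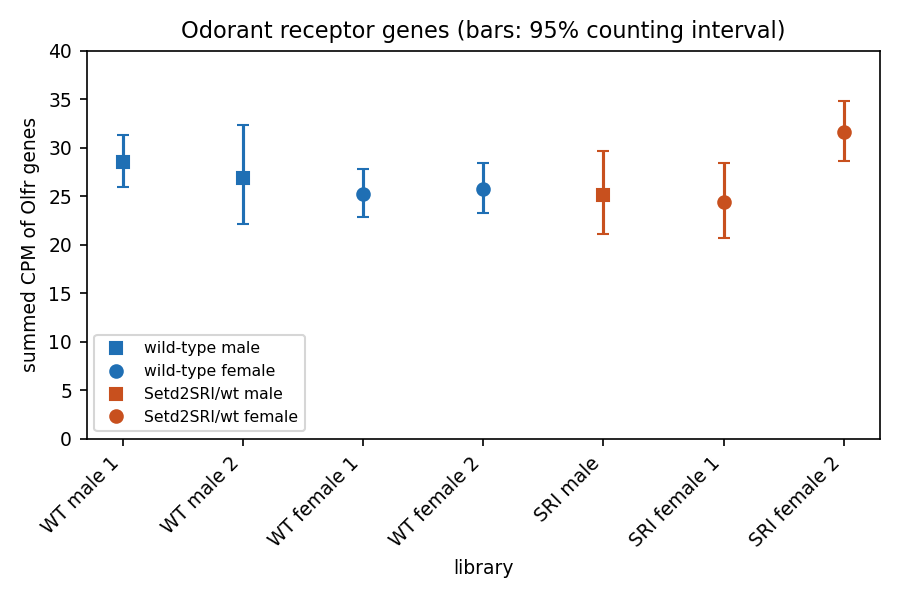
Summed CPM of the Olfr genes (vertical axis) in each library (horizontal axis), with exact Poisson 95% counting intervals as bars; squares are males, circles females, blue wild type and orange Setd2SRI/wt. The sums lie between 24.4 and 31.6 CPM with the wild-type males inside that range.

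Mitral and tufted cell genes split. Eomes, a T-box factor of these cells, and Shisa3 had an r of 0.912 and 0.902 with the mean of the 3 bulb genes. Without the wild-type males these values were 0.793 and 0.184. With the mean of Omp and S100a5 over all libraries, r was 0.681 for Eomes and 0.855 for Shisa3. Eomes stood at 5.08 and 14.0 CPM in wild-type males 1 and 2 and at 1.00 and 2.42 CPM in females 1 and 2 of that genotype. With the Setd2SRI/wt allele Eomes had 2.30 and 0.237 CPM in females 1 and 2. It had no count in the male, which allows up to 0.549 CPM by 3 counts and 0.676 CPM by the two-sided interval. Shisa3 had 3.26 and 6.66 CPM in the wild-type males and 0.982 to 1.53 CPM elsewhere. For the other 6 genes, among them Tbr1, Slc17a7 and Cck, which cortical neurons also express, the wild-type males were not the 2 highest libraries. Cck had 146.6 ± 21.4 CPM over the wild-type brains (SD, n = 4) against 196.3 ± 33.9 CPM with the Setd2SRI/wt allele (SD, n = 3), with an edgeR adjusted p of 0.192. Lhx5 averaged 2.67 ± 0.981 and 0.986 ± 0.313 CPM in the same order, also with an edgeR adjusted p of 0.192. Of the 8 genes, 2 had an r of at least 0.9 with the bulb mean, against 0.347% of 16990 genes. Eomes, Shisa3, Sp8 and Tshz1 were named for this likeness after their values were seen.

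Of 14 bulb interneuron genes with at least 50 counts, 3 had an r of at least 0.9 with the bulb mean. They were Sp8 (r 0.94) and Tshz1 (r 0.936), transcription factors of bulb interneurons, and Scgn (r 0.934), the calcium-binding protein secretagogin. Without the wild-type males r was 0.595 for Sp8, 0.956 for Tshz1 and 0.766 for Scgn. With the mean of Omp and S100a5 over all libraries it was 0.904, 0.733 and 0.732 in the same order. Scgn had 1.76 and 7.61 CPM in wild-type males 1 and 2 and 0.366 to 1.11 in the others. Th, tyrosine hydroxylase, also made in midbrain dopamine neurons, had 19.8 and 39.7 CPM in wild-type males 1 and 2, and 24.8 CPM in female 2 of that genotype. It had 2.77 to 11.96 CPM in the other 4 libraries, with an edgeR adjusted p of 0.212 for genotype. Calb2, calretinin, had 76.9 ± 14.1 CPM over the wild-type brains (SD, n = 4) against 42.5 ± 21.1 CPM with the Setd2SRI/wt allele (SD, n = 3), with an edgeR adjusted p of 0.214. The wild-type males were the 2 highest libraries for 5 of the 14 interneuron genes tested and 2 of the 8 mitral and tufted genes, beside 4.38% of all genes.

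**Figure D5:**
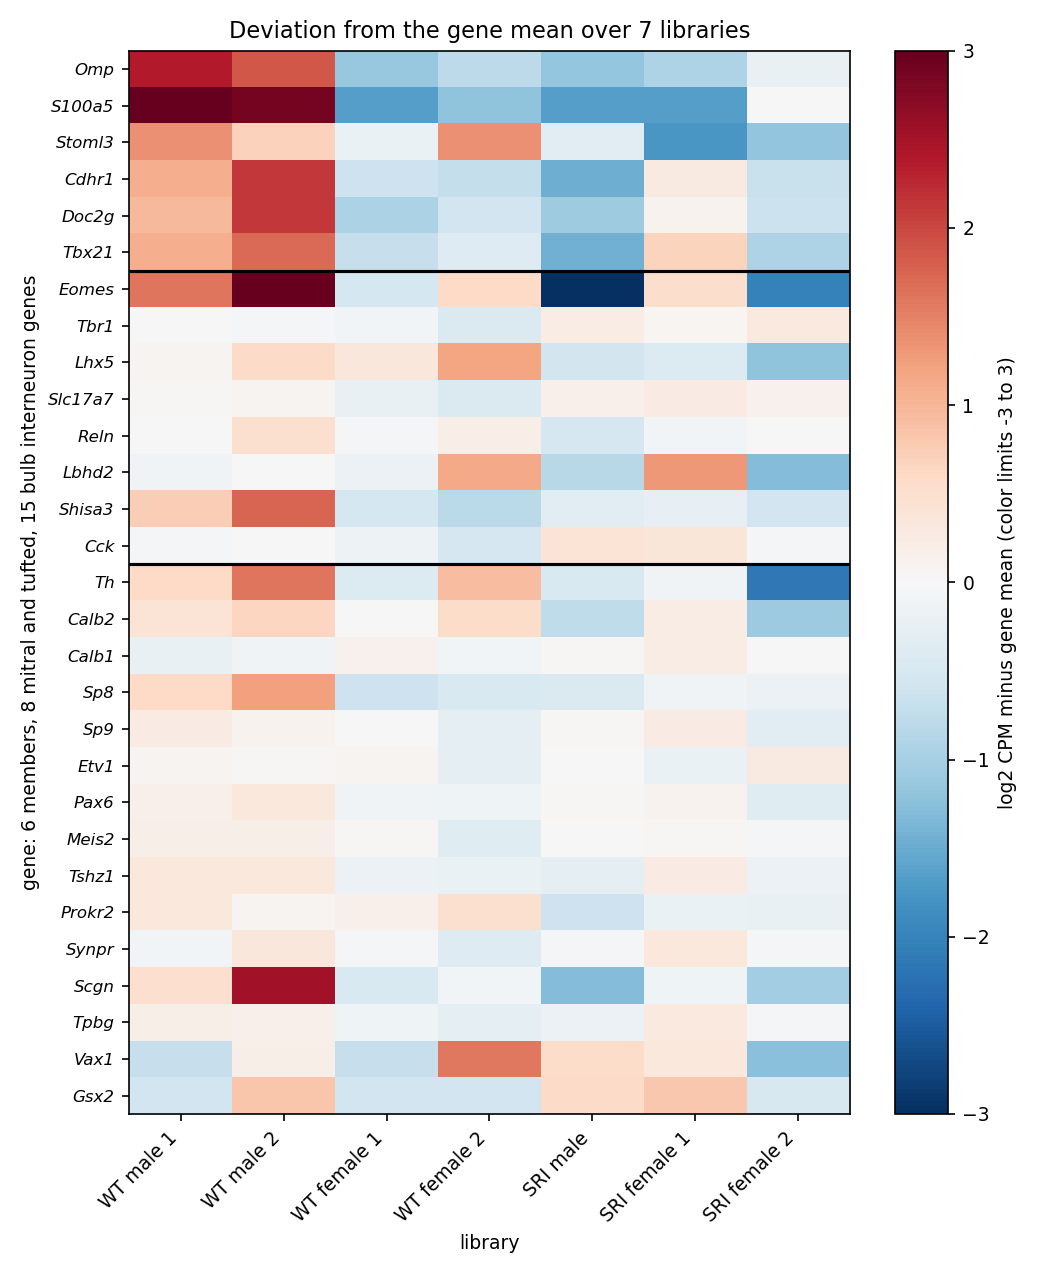
Log2 CPM minus the gene's mean over 7 libraries (color, limited to -3 and 3) for the 6 members, 8 mitral and tufted genes and 15 interneuron genes (rows) in each library (columns). Eomes, Shisa3, Sp8 and Scgn are high in the wild-type males with the bulb members, while Tbr1, Slc17a7 and Cck change little.

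The 5 genes most like the bulb mean, of 16990 with at least 50 counts, were Natd1 (r 0.982), Wdr4 (0.981), Ms4a15 (0.975), Frmd7 (0.969) and Klhdc7a (0.967). Ms4a15 had 2.07 and 5.23 CPM in the wild-type males, 1.07 in Setd2SRI/wt female 1 and at most 0.125 in the others. Among these, wild-type female 2 and the Setd2SRI/wt male had no count, which allows up to 0.196 and 0.549 CPM by 3 counts. Frmd7 had 6.21 and 9.52 CPM in the wild-type males and 0.550 to 2.61 CPM elsewhere. The genes most like the mean of the 3 sensory genes were Airn (r 0.958), Irs1 (0.951), Rad54l (0.945), Ms4a6b (0.944) and Cog8 (0.944). Irs1 had 12.7 and 12.9 CPM in the wild-type males and 8.06 to 10.4 CPM in the others, a far smaller change than that of Omp. Prph, peripherin of peripheral neurons, was the list gene most like Stoml3, with an r of 0.964, and 0.948 without the wild-type males. The summed peripheral sensory genes were 61.1 CPM in wild-type female 2, 33.0 to 34.0 CPM in the other wild-type libraries and 21.02 to 26.7 CPM in Setd2SRI/wt. Scn9a, a sodium channel gene, gave 40.5 CPM of the sum in wild-type female 2. Without it the list summed to 20.6 CPM there, 15.5 to 17.8 CPM in the other wild-type libraries and 8.46 to 12.1 CPM in Setd2SRI/wt. The 9 genes of multiciliated cells summed to 71.9 CPM in wild-type female 2 and 22.4 to 39.3 CPM elsewhere. Stoml3 was high in wild-type female 2 too, and the part of these cells in its level was not tested.

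The genotype comparison asked how the heterozygous SRI change alters brain expression. None of the 6 members was called by edgeR's quasi-likelihood test (adjusted p under 0.05, sex as a term), in which 0.0174% of 17260 genes were called, 3 genes in all. Stoml3 was called with no filter, without wild-type female 1 and in females alone with the replicate block. Since the comparison entered the choice of members, nothing is read from these calls. Omp had 2.85 ± 2.88 CPM over the wild-type brains (SD, n = 4) against 0.565 ± 0.267 CPM with the Setd2SRI/wt allele (SD, n = 3). S100a5 had 2.38 ± 2.76 and 0.132 ± 0.228 CPM. The bulb gene Cdhr1 had 19.5 ± 18.0 and 7.25 ± 4.42 CPM, Doc2g 7.07 ± 6.86 and 2.64 ± 1.21 CPM, and Tbx21 0.657 ± 0.616 and 0.231 ± 0.334 CPM. For these 5 genes the wild-type spread was about as large as the wild-type mean, and the wild-type females lay within the Setd2SRI/wt range.

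Stoml3 had 2.00 ± 0.942 CPM over the wild-type brains (SD, n = 4) against 0.401 ± 0.299 CPM with the Setd2SRI/wt allele (SD, n = 3). It was the member whose genotypes did not overlap, as all 3 Setd2SRI/wt libraries lay below all 4 wild-type libraries, which held for 4.08% of genes tested. The fitted log2 fold changes of Setd2SRI/wt over wild type were -1.10 ± 0.645 (SE) for Omp, -2.07 ± 1.08 for S100a5 and -2.32 ± 0.573 for Stoml3. They were -0.64 ± 0.512 for Cdhr1, -0.60 ± 0.505 for Doc2g and -0.81 ± 0.926 for Tbx21. Over all genes tested, 8382 of 17260 were negative. Without the Setd2SRI/wt male the value turned positive for Omp (0.66), S100a5 (2.63), Tbx21 (0.73), Cdhr1 (0.50) and Doc2g (0.50), and in females alone it was 0.52 for Cdhr1 and 0.51 for Doc2g. Omp did not pass the filter without wild-type male 1, and S100a5 did not when either wild-type male was left out. Tbx21 did not pass it when any wild-type library or Setd2SRI/wt female 2 was left out. In the remaining fits with 1 library left out, the genotype log2 fold change kept its sign. Without Setd2SRI/wt female 2 it was -7.57 for S100a5 and -2.50 for Omp, and without Setd2SRI/wt female 1 it was -2.70 for Tbx21, -1.25 for Cdhr1 and -1.10 for Doc2g. Without wild-type male 2 it was -0.39 for Cdhr1 and -0.31 for Doc2g, and without either wild-type female it was -0.99 or -1.0 for Cdhr1 and -0.96 or -0.77 for Doc2g. For Stoml3 it stayed between -2.92 and -1.65 in all 16 alternatives run.

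Fitted over both genotypes, the log2 ratio of males to females was 2.55 ± 0.558 (SE) for Omp, 4.39 ± 0.875 for S100a5 and 0.58 ± 0.473 for Stoml3. For the bulb genes it was 1.38 ± 0.495 for Cdhr1, 1.54 ± 0.477 for Doc2g and 1.72 ± 0.793 for Tbx21. None of the members was called for sex by edgeR, in a comparison that called 0.0463% of genes. Omp, S100a5, Cdhr1 and Doc2g were called with no filter and without the Setd2SRI/wt male. Omp and S100a5 were called without Setd2SRI/wt female 2, and Omp, S100a5 and Cdhr1 in wild type only. As these levels entered the choice of members, nothing is read from these calls. Over the alternatives run, the log2 ratio was 2.07 to 3.58 for Omp, 3.51 to 6.87 for S100a5 and 0.0845 to 1.54 for Stoml3. It was 0.79 to 2.36 for Cdhr1, 0.95 to 2.40 for Doc2g and 1.49 to 2.62 for Tbx21. Without the Setd2SRI/wt male it was 6.84 for S100a5 and 2.36 and 2.40 for Cdhr1 and Doc2g, and without wild-type male 2 it was 0.79 and 0.95 for these bulb genes. S100a5 had 6.71 without Setd2SRI/wt female 2, and Stoml3 had 0.37 without wild-type male 1, and 0.0845 and 1.54 when the wild-type females 1 and 2 were left out in turn. The Setd2SRI/wt male did not share the high levels of the wild-type males: it was the lowest library for Omp, Cdhr1 and Doc2g and had no count of S100a5 or Tbx21. With 1 male of that genotype, sex, genotype and the single animals cannot be told apart for these genes.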

How the data were processed

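RNA was sequenced from 7 whole newborn brains. Per the labels' protocols, ribosomal RNA was removed from total RNA before stranded library preparation and paired-end sequencing. The deposited values are raw counts per gene, made by the authors. Per the submitters' processing notes, FastQC, Trim Galore, HISAT2, featureCounts and edgeR were used with mm10; versions, strand setting and treatment of multiply matching reads are not given in the sources used here. Reads of overlapping genes are therefore uncertain.

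In R 4.3.3, edgeR 4.0.16 kept 17260 genes by filterByExpr, scaled the libraries by TMM, and gave a two-sided quasi-likelihood F-test for genotype and for sex from 1 additive model, with Benjamini-Hochberg adjustment over those genes. The SE is the absolute log2 fold change over the square root of F. Libraries varied with a common biological coefficient of variation of 12.2%. Coordinates are GENCODE release M21. DESeq2 1.42.0, limma-voom (limma 3.58.1), other scalings and filters, and each library left out were alternatives. Figures used matplotlib 3.10.9 in Python 3.11.15.

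The members and the 16 gene lists were chosen with earlier results of these data known. Genes named were the members, up to 4 of smallest genotype p per list, the 5 most like each class mean and the 3 Olfr genes with most counts; defining markers with no count are named too, and others are marked where named. One gene of the hindbrain list is not reported here and was left out of its sum. Groups follow the labelled genotype and sex. The column of the Setd2SRI/wt male was matched as the only male of that genotype.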

Additional observations from a re-analysis of the deposited data

Results flagged for a closer look

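Each result below had 1 of the 4 wild-type libraries far from the other 3, by a gap beyond Dixon's 95% critical value of 0.829 times the group's range. In all 24 such groups were examined, and chance alone flags about 1 in 20. None of the 6 olfactory members was among them. The rule looks for 1 library apart from 3, so it cannot flag a gene that is high in both wild-type males. The summed pituitary genes had 32.2 CPM in wild-type female 2 and 5.02 to 8.09 CPM in the other wild-type libraries. The summed peripheral sensory neuron genes had 61.1 CPM in the same library against 33.0 to 34.0 CPM. Scn9a alone gave 40.5 CPM of this. Without it the sums were 20.6 against 15.5 to 17.8 CPM, a gap of 0.547 of the range and under the critical value, in a check chosen after seeing the data. The summed T and NK cell genes had 1.38 CPM in wild-type female 1 against 0.238 to 0.327 CPM. Gzma gave 0.688 CPM of it, and without Gzma the gap was 0.619 of the range, also under the critical value. The summed hindbrain Hox genes had 17.1 CPM in wild-type male 1 against 0 to 0.393 CPM.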

How the results depend on the processing

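The 3 genotype calls of edgeR became 5 at an adjusted p under 0.1, 331 with no filter on low counts, 64 with the Wald test of DESeq2, and 1 each with total counts, a mean CPM of at least 1 or limma-voom. They became 0 with no sex term (1393 genes at an unadjusted p under 0.05). With 1 library left out at a time there were 0 to 110 calls: 0 without wild-type male 2 or wild-type female 2 (1240 and 1282 at an unadjusted p under 0.05), 1 without Setd2SRI/wt female 2 or the male of that genotype, 2 without wild-type male 1, 11 without Setd2SRI/wt female 1 and 110 without wild-type female 1. Without both wild-type male 1 and wild-type female 2, chosen after seeing the data, edgeR called 0 genes (651 at an unadjusted p under 0.05). The 8 sex calls became 136 with no filter and 15 in wild type only, and 8 to 20 when each library was left out. The cause was not tested.

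In females alone, edgeR called 1 gene with no replicate block and 80 with the replicate block. The numbers pair the samples by name only, and no pairing is assumed. Over genes, the deviations of the females numbered 1 from their genotype means had a correlation of -0.056. With 2 females per genotype those numbered 2 mirror them, so this value cannot decide whether the numbers mark a pairing. Genotype fold changes turned sign for S100a5 with DESeq2 and as given above without the Setd2SRI/wt male. All 6 members passed the filter with all libraries, but 3 did without wild-type male 1 and 4 without wild-type male 2. In the shallowest library 3 counts are worth 0.714 CPM, which limits Tbx21, S100a5 and Omp.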

Other observations

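Among 7 genes of olfactory neuron precursors, 6 were tested. Ebf3 and Ebf2, transcription factors of the Olf/Ebf family, had 9.74 ± 2.34 and 2.59 ± 0.577 CPM across the wild-type brains (SD, n = 4), against 3.96 ± 2.08 and 1.06 ± 0.282 CPM across the Setd2SRI/wt brains (SD, n = 3), with edgeR adjusted p-values of 0.147 and 0.243. Lhx2 had 42.8 ± 5.07 and 57.6 ± 8.93 CPM, with an edgeR adjusted p of 0.166. These factors are also expressed in other parts of the newborn brain. Npy, a peptide of olfactory ensheathing glia and of cortical interneurons, averaged 53.4 ± 5.17 CPM without and 70.9 ± 17.7 CPM with the Setd2SRI/wt allele, with an edgeR adjusted p of 0.192. The 333 vomeronasal receptor genes summed to between 11.7 and 18.7 CPM per library.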
